A study of Mus musculus with 9 samples.

Results

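The genes described here are 8 that carry sugars into and out of intestinal epithelial cells (IECs) or handle fructose inside them: Slc5a1, Slc2a5, Slc2a2, Slc2a1, Khk, Fbp1, Hk2 and Mlxipl. They were chosen by name, from their known roles and with earlier results of these data known. Each was found by its Ensembl identifier among the 29288 genes of the count table. The RNA came from female wild-type (WT) mice of strain C57BL/6J that received 2 µg of α-galactosylceramide (αGalCer) or PBS intraperitoneally. αGalCer is a glycolipid that activates natural killer T (NKT) cells, and the question was how IECs respond to that activation in vivo. IECs were taken 18 h after PBS (control, n = 3), 18 h after αGalCer (18h-αGal, n = 3) or 72 h after αGalCer (72h-αGal, n = 3). Crypts of the proximal small intestine were digested and live EpCAM+ Ter119- CD31- CD45- cells were sorted, so the villus, where most sugar is absorbed, was sampled only as far as its cells came with the crypt preparation. All controls were taken at 18 h, which means that an αGalCer effect and an effect of sampling time cannot be told apart at 72 h.

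Dietary glucose and galactose enter the enterocyte from the gut lumen with sodium through SGLT1, the product of Slc5a1, and fructose enters through GLUT5, the product of Slc2a5. GLUT2, the product of Slc2a2, lets these sugars leave toward the blood, and GLUT1, the product of Slc2a1, is a widespread glucose transporter that supplies dividing cells. Inside the cell ketohexokinase (Khk) phosphorylates fructose, hexokinase 2 (Hk2) phosphorylates glucose, and fructose bisphosphatase 1 (Fbp1) runs a key step of gluconeogenesis. Mlxipl encodes ChREBP, a transcription factor that senses sugar phosphates, binds DNA with its partner Mlx and drives genes of fructose handling and fat synthesis.

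Promoter windows from RefSeq on build GRCm38.p6 were found for 8 of the 8 genes, 9 windows in all, each running from 250 bases before the start site to 50 after it. Those of Fbp1 and Mlxipl are shown because their transcripts changed at 18 h. Those of Slc5a1 and Khk are shown because, like 1 window of Mlxipl, they hold the E-box CACGTG, the letters to which ChREBP and many other factors can bind. Capitals mark the E-box.
Fbp1, minus strand, chr13:62888233-62888532: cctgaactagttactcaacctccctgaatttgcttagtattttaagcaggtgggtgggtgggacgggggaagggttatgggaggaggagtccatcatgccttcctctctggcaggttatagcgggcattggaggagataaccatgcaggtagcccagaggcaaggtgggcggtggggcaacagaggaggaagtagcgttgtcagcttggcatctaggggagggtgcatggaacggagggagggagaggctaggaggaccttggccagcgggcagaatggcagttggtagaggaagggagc
Mlxipl, plus strand, chr5:135089640-135089939: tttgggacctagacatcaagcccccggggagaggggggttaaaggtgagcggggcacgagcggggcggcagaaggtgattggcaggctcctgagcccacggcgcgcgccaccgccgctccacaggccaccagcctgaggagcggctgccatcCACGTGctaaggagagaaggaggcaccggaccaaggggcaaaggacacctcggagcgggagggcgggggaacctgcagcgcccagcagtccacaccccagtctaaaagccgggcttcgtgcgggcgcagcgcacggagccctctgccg
Mlxipl, plus strand, chr5:135106641-135106940: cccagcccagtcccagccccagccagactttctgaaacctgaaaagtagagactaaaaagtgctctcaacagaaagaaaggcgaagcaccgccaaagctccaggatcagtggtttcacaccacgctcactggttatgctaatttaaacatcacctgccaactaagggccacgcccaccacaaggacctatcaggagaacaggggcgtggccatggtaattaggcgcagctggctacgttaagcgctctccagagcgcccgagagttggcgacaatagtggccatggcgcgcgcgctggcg
Slc5a1, plus strand, chr5:33103969-33104268: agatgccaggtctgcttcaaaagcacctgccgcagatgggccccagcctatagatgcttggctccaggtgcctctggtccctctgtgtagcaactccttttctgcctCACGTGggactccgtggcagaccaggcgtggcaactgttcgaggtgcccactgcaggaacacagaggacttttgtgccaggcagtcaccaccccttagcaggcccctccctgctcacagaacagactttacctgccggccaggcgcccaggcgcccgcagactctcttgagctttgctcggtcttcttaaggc
Khk, plus strand, chr5:30921309-30921608: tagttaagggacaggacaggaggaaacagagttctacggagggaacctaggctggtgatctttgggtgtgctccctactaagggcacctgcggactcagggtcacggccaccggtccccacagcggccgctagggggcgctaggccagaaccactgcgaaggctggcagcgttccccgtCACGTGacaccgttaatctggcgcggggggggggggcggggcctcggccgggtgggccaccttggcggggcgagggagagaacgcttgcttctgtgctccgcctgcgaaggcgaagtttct
Both strands were searched. The E-box began 98 bases before the upstream start site of Mlxipl, 143 before that of Slc5a1 and 71 before that of Khk, and 7.15% of all 32851 windows held it. The start site of the Khk window lies downstream of the Khk gene start given below (30921436), so that E-box lies within the gene as located there. These matches describe letters and not binding, and the windows of Fbp1 and of the downstream Mlxipl start site, 17001 bases away, did not hold it.

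The 9 libraries held between 8887861 and 32722293 counts, and the 8 genes together took between 0.146% and 0.294% of the summed normalised counts of a library. Each of the 8 genes passed the filter on low counts, with at least 171 raw counts in every library. Counts of different replicates differed by more than counting noise, at 13.1 to 42.0 for chi-square over its degrees of freedom, so the spread between mice and not the depth sets the errors below. Markers of other cell types that a sort could retain were low. The 11 leukocyte markers in the table summed to between 127 and 256 normalised counts in any library, with Cd3e, Cd3g and Tyrobp under the filter. The 10 erythroid, endothelial and stromal markers summed to 402 to 610 in controls, 608 to 711 at 18 h and 180 to 231 at 72 h, with Cdh5, Kdr, Col3a1, Pdgfra and Dcn under the filter. Of the 5 tested, Vim alone passed, higher at 18 h than in controls (0.76 ± 0.21) and lower at 72 h than at 18 h (-2.08 ± 0.22). Among markers of epithelial types, none of 8 Paneth markers passed the edgeR test in any comparison, 1 of 7 goblet markers (Agr2) and 2 of 6 tuft markers tested (Alox5, Avil) were higher at 18 h, and 1 of 12 stem and cycling markers (Axin2) was higher at 72 h than at 18 h. None of these 12 passed at 18 h against control, where 6 had positive and 6 negative log2 fold changes. The negative ones were Lgr5, Olfm4, Ascl2, Smoc2, Axin2 and Slc12a2 (Olfm4 from 38098 ± 10963 to 15916 ± 9187 normalised counts). The positive ones were the cycling genes Mki67, Top2a, Pcna, Mcm6, Ccnb1 and Cdk1 (Mki67 from 11117 ± 2173 to 14626 ± 1826). In that comparison 5 of the 12 had an unadjusted p under 0.05 in edgeR, beside 20.8% of all genes tested. Summed, the 12 had 58603 to 107073 normalised counts in controls, 34165 to 69227 at 18 h and 78925 to 110028 at 72 h. Of 8 enteroendocrine markers, 2 were higher at 18 h and 4 lower at 72 h than in controls, beside 3.27% and 0.0264% of all genes tested. The 8 summed to 8310 to 11304 normalised counts in controls, 11585 to 19024 at 18 h and 3804 to 5839 at 72 h. Between 72 h and 18 h 6 of the 8 were lower (median log2 fold change -1.56), as were 2 of 6 tuft markers (Trpm5, Avil), beside 6.04% of all genes tested. The part of these cell types in the results below was not tested. As a check of the treatment, 7 of 8 interferon-γ-inducible genes rose at 18 h (Irf1 from 2094 ± 413 to 3522 ± 112 normalised counts, SD, n = 3) and none of the 8 passed the test at 72 h, where 1 had an unadjusted p under 0.05 in edgeR.

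Scaled for length, as CPM (counts relative to the library's total) per kilobase over the union of a gene's exons, Slc5a1 was the most abundant of the 8 transcripts in control crypts, at 205 ± 90.4 (SD, n = 3). Mlxipl came next at 116 ± 8.76, above Slc2a2 at 42.9 ± 14.1. Each of these levels lay apart from the next in all 3 control mice. Khk at 16.2 ± 1.63, Slc2a5 at 15.8 ± 4.70 and Fbp1 at 14.8 ± 2.83 did not differ beyond their spread. Hk2 at 8.53 ± 1.76 and Slc2a1 at 5.48 ± 1.50 were lowest and their ranges overlapped. Per length, the glucose importer thus stood far above the fructose importer, and the transcript of the regulator ChREBP stood above 6 of the other 7. At 18 h Fbp1 dropped to the bottom of the order, at 5.52 ± 0.738, with Slc2a1 (7.08 ± 1.39) as its nearest neighbour and overlapping ranges. At 72 h Fbp1 was back at 14.1 ± 0.898, between Slc2a5 and Khk, and the ranges of Slc5a1 (137 ± 32.4) and Mlxipl (111 ± 9.95) overlapped. Part of this order rests on the length used. With the longest transcript as length, Mlxipl in controls (149 to 173) lay within the range of Slc5a1 (131 to 306), and Khk (29.9 to 36.0) lay above Fbp1 (18.3 to 26.5) and Slc2a5 (13.2 to 24.4). Fbp1 at 18 h then had 8.16, beside 7.97 for Hk2 and 7.47 for Slc2a1 with overlapping ranges. At 72 h Mlxipl (154) then had a higher mean than Slc5a1 (137), and the means of Khk (24.2), Fbp1 (20.8) and Slc2a5 (18.4) came in the reverse order.

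**Figure D1:**
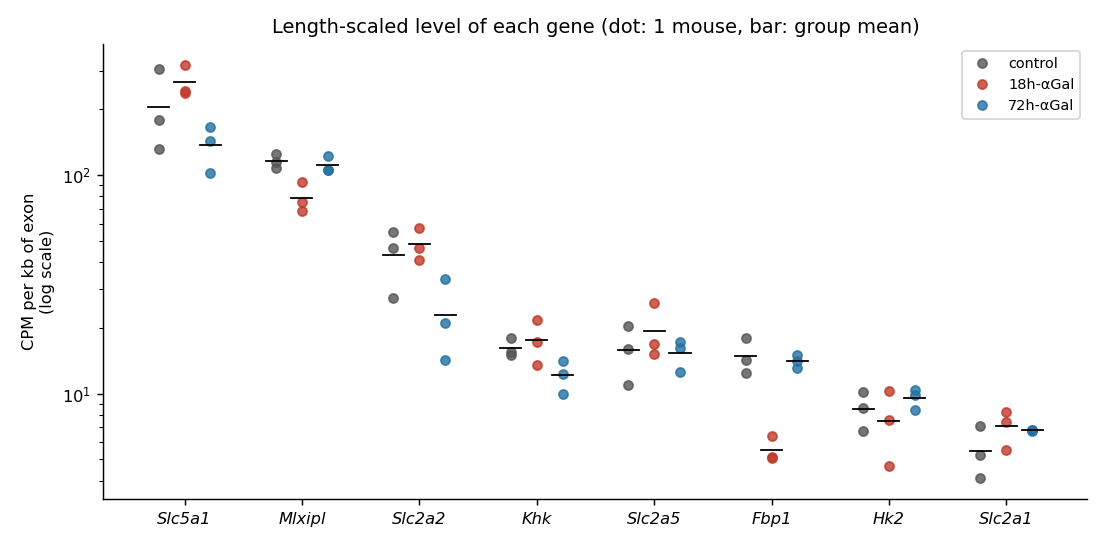
Length-scaled level of each of the 8 genes (vertical axis, CPM per kilobase of exon, log scale), with a dot for each mouse and a bar for the mean of each group of 3. Slc5a1 and Mlxipl stand above the other 6 genes in every group, and Fbp1 at 18 h (5.52) stands apart from its own control level (14.8).

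Of the 8 genes, 2 passed the test at 18 h against control, Fbp1 and Mlxipl, and both were lower (edgeR's quasi-likelihood test, Benjamini-Hochberg adjusted p under 0.05). Over all 18933 genes tested 5.96% passed in that comparison, 2.69% lower and 3.27% higher, and 20.8% had an unadjusted p under 0.05, as did 3 of the 8. At 72 h none of the 8 passed the test against control, beside 0.0264% of all genes, and DESeq2 called none of them either. An unadjusted p under 0.05 in edgeR was reached by 1 of the 8 at 72 h, Khk, beside 5.94% of all genes. Between 72 h and 18 h only Fbp1 passed among the 8, and it was higher at 72 h, beside 10.2% of all genes, 4.18% higher and 6.04% lower. An unadjusted p under 0.05 was reached there by 5 of the 8 genes, beside 24.3% of all genes. The median log2 change of the 8 genes was 0.17 at 18 h against control, -0.11 at 72 h against control and -0.27 between 72 h and 18 h, where the medians of all genes tested were -0.03, 0.00 and 0.05. The comparisons at 18 h and 72 h use the same 3 control mice. In bulk RNA, fewer cells of a type and less RNA per cell cannot be told apart, and this holds for every value below.

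**Figure D2:**
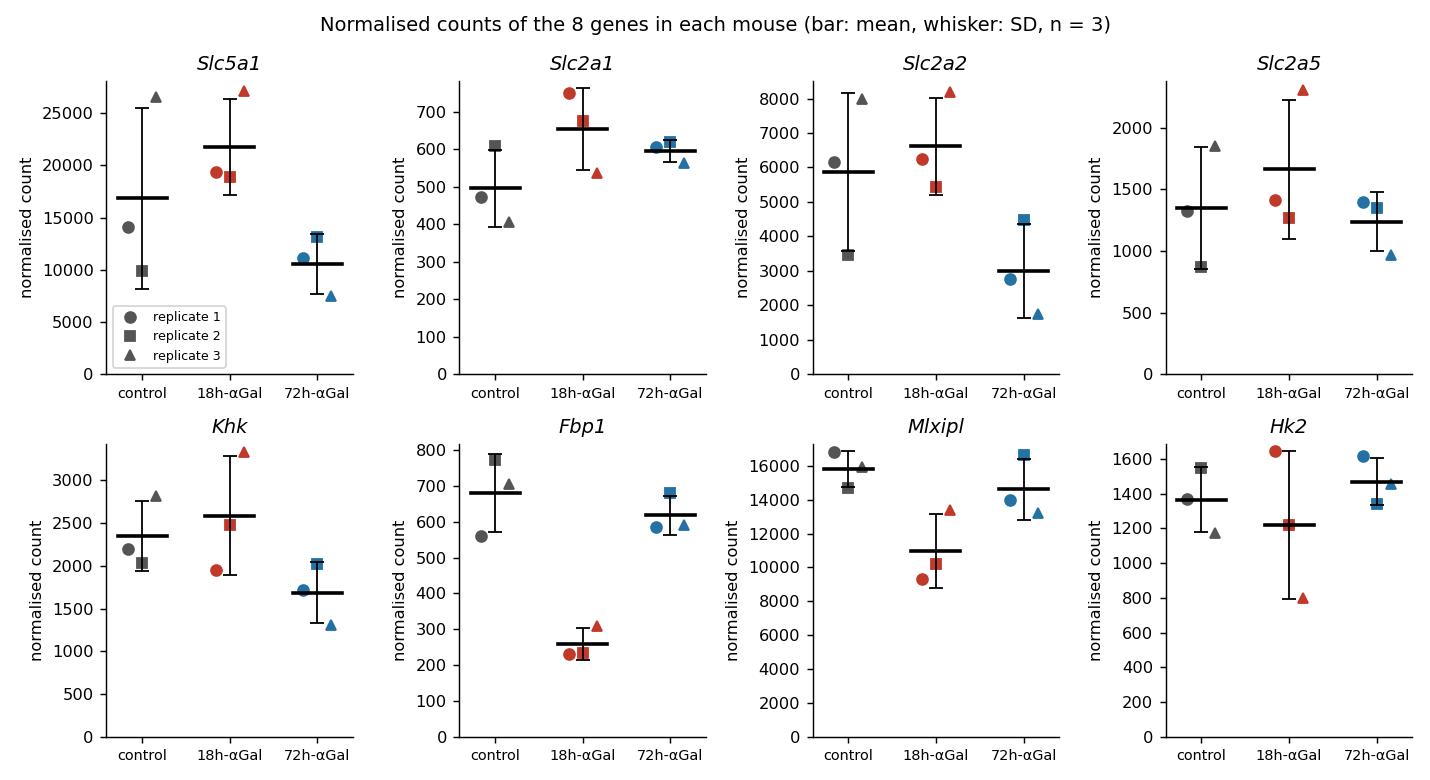
Normalised counts of the 8 genes (vertical axes, from 0) in each of 9 mice (dots), by group, with the mean (bar) and SD (whisker) of n = 3. The Fbp1 counts of the 18h-αGal mice (232 to 309) lie below those of all other mice (559 to 773).

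Among the importers at the luminal side, Slc5a1 (ENSMUSG00000011034, chr5:33104219-33162699 on GRCm38.p6) had 14072, 9891 and 26555 normalised counts in the control mice. It had 19352, 18909 and 27108 in the 18h-αGal mice and 11110, 13161 and 7478 in the 72h-αGal mice. The controls spanned a 2.68-fold range that overlapped both treated groups, while every 72h-αGal mouse was below every 18h-αGal mouse. The log2 fold change was 0.38 ± 0.38 (SE) at 18 h against control, with an adjusted edgeR p of 0.644 and a 95% interval from -0.50 to 1.27. It ranged from 0.12 without control replicate 2 to 0.86 without control replicate 3 (edgeR adjusted p of 0.0978). It was -0.65 ± 0.38 at 72 h against control (edgeR adjusted p of 0.885; -0.17 without control replicate 3) and -1.03 ± 0.38 between 72 h and 18 h (edgeR adjusted p of 0.146). The last difference, a 2.05-fold lower level at 72 h, thus missed the threshold although the groups were apart, as they were in 32.8% of all genes tested in that comparison.

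Slc2a5 (ENSMUSG00000028976), the fructose importer, had 1322, 867 and 1854 normalised counts in controls, 1415, 1269 and 2308 at 18 h and 1400, 1349 and 968 at 72 h. The 3 groups overlapped in every comparison. Its log2 fold change was 0.32 ± 0.29 at 18 h against control and -0.10 ± 0.29 at 72 h against control. Neither passed (edgeR adjusted p of 0.612 and 0.989), and the interval at 18 h, from -0.34 to 0.98, leaves room for up to a 1.97-fold rise. The 18 h value ranged from 0.02 without 18h-αGal replicate 3 to 0.60 without control replicate 3.

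Of the exporter and the housekeeping transporter, Slc2a2 (ENSMUSG00000027690, chr3:28697903-28728361) had 6161, 3456 and 7998 normalised counts in controls, 6237, 5444 and 8182 at 18 h and 2748, 4468 and 1757 at 72 h. Only the 72h-αGal and 18h-αGal groups did not overlap, and 16.3% of all genes tested were apart and lower in that comparison and 16.6% apart and higher. The log2 change of Slc2a2 was 0.18 ± 0.41 at 18 h against control, -0.96 ± 0.41 at 72 h against control and -1.14 ± 0.42 between 72 h and 18 h. The edgeR adjusted p-values were 0.862, 0.841 and 0.147, so the lower level at 72 h, 2.20-fold below 18 h, did not pass. Slc2a1 (ENSMUSG00000028645, chr4:119108745-119137330) had 474, 608 and 407 normalised counts in controls, 752, 677 and 537 at 18 h and 606, 620 and 564 at 72 h. Its largest log2 fold change was 0.41 ± 0.19 at 18 h against control, with an unadjusted p of 0.0481 and an adjusted edgeR p of 0.234, and control replicate 2 lay within the range of the 18h-αGal mice. The antisense gene Gm12868 overlaps 5.31% of its exon length and had a mean of 7.67 raw counts, beside 651 for Slc2a1.

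Fbp1 (ENSMUSG00000069805, chr13:62864753-62888298, minus strand) was the gene of the 8 that changed most. It had 559, 773 and 706 normalised counts in controls, 232, 233 and 309 in 18h-αGal mice and 584, 680 and 589 in 72h-αGal mice. All 18h-αGal mice were below all others, and the 72h-αGal mice fell within the range of the controls. Of all genes tested, 12.3% were apart and lower at 18 h than in controls and 16.6% apart and higher at 72 h than at 18 h. At 18 h Fbp1 was 2.63-fold lower than in controls, a log2 change of -1.39 ± 0.19 (SE, 95% interval -1.79 to -0.99) with an adjusted edgeR p of 0.00075. Between 18 h and 72 h it rose 2.42-fold, a log2 change of 1.27 ± 0.19 with an adjusted edgeR p of 0.00105. At 72 h against control the log2 fold change was -0.12 ± 0.18 with an adjusted edgeR p of 0.967, and its interval from -0.51 to 0.27 leaves room for a level 0.702 times that of controls.

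Khk (ENSMUSG00000029162, chr5:30921436-30931248) had 2199, 2031 and 2815 normalised counts in controls, 1952, 2480 and 3329 at 18 h and 1716, 2025 and 1313 at 72 h. The 18h-αGal mice overlapped the controls, with a log2 change of 0.15 ± 0.20 (edgeR adjusted p of 0.742). Every 72h-αGal mouse was below every control, the highest at 2025 and the lowest control at 2031, and 6.30% of all genes tested were apart in this direction and 6.36% in the other. The log2 change of Khk was -0.46 ± 0.20 at 72 h against control (unadjusted p of 0.0365, edgeR adjusted p of 0.826) and -0.61 ± 0.20 between 72 h and 18 h (edgeR adjusted p of 0.0714). Exons of Khk overlap those of Cgref1 on the other strand over 2003 bases, 27.1% of the Khk exon length. The strand setting of the counting was not stated, so reads of this pair cannot be told apart. Cgref1 itself had log2 fold changes of 0.17 ± 0.35 and -0.59 ± 0.36 at 18 h and 72 h against control, and neither passed. Hk2 (ENSMUSG00000000628, chr6:82725025-82774454, minus strand) had 1373, 1550 and 1174 normalised counts in controls, 1646, 1219 and 798 at 18 h and 1615, 1341 and 1454 at 72 h. These ranges overlapped, with log2 fold changes of -0.15 ± 0.21, 0.12 ± 0.21 and 0.27 ± 0.21 in the 3 comparisons and edgeR adjusted p-values from 0.496 to 0.975.

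Mlxipl (ENSMUSG00000005373, chr5:135089890-135139768), the ChREBP gene, had 16828, 14666 and 15933 normalised counts in controls, 9299, 10194 and 13407 in 18h-αGal mice and 13951, 16633 and 13213 in 72h-αGal mice. All 18h-αGal mice were below all controls, while 1 of them, replicate 3, was above the lowest 72h-αGal mouse. Among all genes tested 12.3% were apart and lower at 18 h than in controls. Mlxipl was 1.44-fold lower at 18 h than in controls, a log2 change of -0.52 ± 0.14 with an adjusted edgeR p of 0.0341. The call was close to the threshold: the adjusted p was 0.0709 with the replicate number as a block, 0.0772 with only the compared groups in the fit, 0.142 without control replicate 1, 0.0523 without control replicate 2, 0.132 without 18h-αGal replicate 1, 0.151 without 18h-αGal replicate 2 and 0.0545 without 72h-αGal replicate 1. Against 18 h, Mlxipl at 72 h had a log2 change of 0.42 ± 0.14 and an adjusted edgeR p of 0.062. Against control the 72 h value was -0.10 ± 0.13. The counts sum over the start sites and do not separate the ChREBP isoforms.

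**Figure D3:**
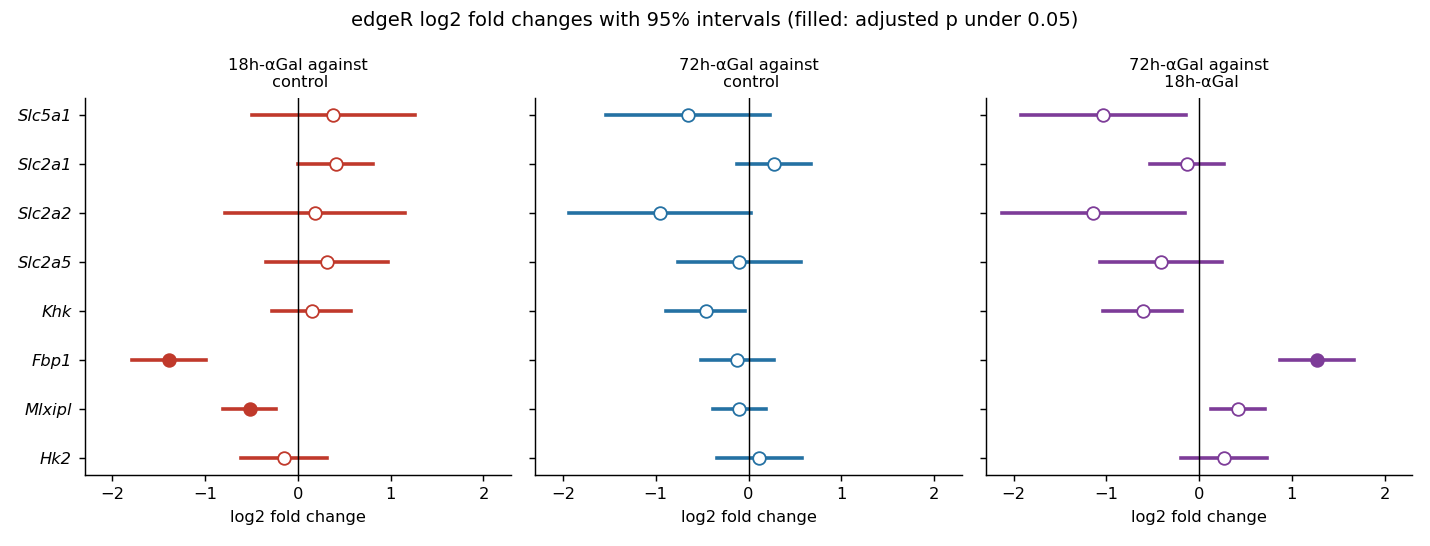
Log2 fold changes of the 8 genes from edgeR (horizontal axis) with 95% intervals in the 3 comparisons. Filled points have an adjusted p under 0.05, which are Fbp1 (-1.39) and Mlxipl (-0.52) at 18 h against control and Fbp1 (1.27) between 72 h and 18 h.

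In the control and the 18h-αGal group replicate 3 was highest, replicate 1 next and replicate 2 lowest for Slc5a1, Slc2a2 and Slc2a5. The summed normalised counts of 16 markers of the villus enterocyte (Alpi, Apoa1, Fabp2 and others) had the same order, with 244698, 168958 and 445091 in controls and 259368, 213205 and 338897 at 18 h. Khk shared the order of the markers in controls but not at 18 h. At 72 h the markers summed to 174448, 222841 and 116424, and Slc5a1, Slc2a2, Khk, Mlxipl and Slc2a1 likewise had replicate 2 highest, replicate 1 next and replicate 3 lowest, whereas Slc2a5 had replicate 1 highest. Slc5a1 and Slc2a2 thus had the order of the markers in all 3 groups, Slc2a5 and Khk in 2, Mlxipl and Slc2a1 in 1, and Fbp1 and Hk2 in none. With 3 mice a group an order can match by chance, and the share of all genes with the order of the markers was not computed. The 16 markers were all tested and none passed in any comparison, with median log2 fold changes of -0.04 at 18 h against control, -0.74 at 72 h against control, where 16 of 16 were negative, and -0.56 between 72 h and 18 h. The negative log2 fold changes of Slc5a1, Slc2a2 and Khk at 72 h, none of which passed, thus stood beside negative values of these markers, and the part of the villus enterocytes in them was not tested. At 18 h the marker sums lay within the range of the controls, which was 2.63-fold wide. Fbp1 and Mlxipl lay below their own control ranges in every 18h-αGal mouse, and the part of any cell type in these falls was not tested.

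A fit with the mean log2 CPM of the villus enterocyte markers as a covariate, in place of their sum, changed some calls. This covariate was chosen after seeing the data and measured on the same libraries. At 18 h against control Slc5a1 then passed, at a log2 change of 0.54 ± 0.09 with an adjusted edgeR p of 0.00019, beside Fbp1 and Mlxipl. At 72 h against control its value turned from -0.65 to 0.059, and none of the 8 genes passed. Between 72 h and 18 h Slc5a1 (-0.48 ± 0.10), Slc2a2 (-0.60 ± 0.12), Mlxipl (0.55 ± 0.12) and Fbp1 passed.

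**Figure D4:**
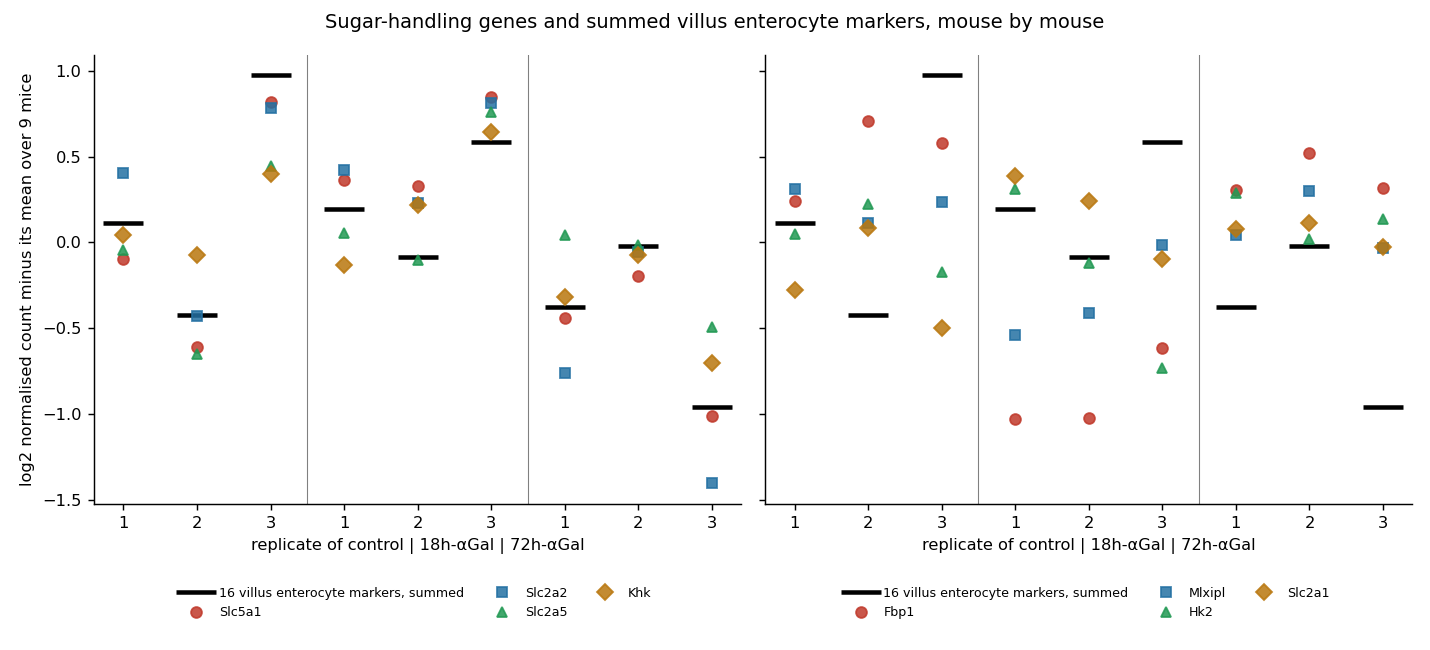
Log2 normalised counts of each gene minus its mean over 9 mice (vertical axis) by replicate and group, with the summed 16 villus enterocyte markers as black bars. Slc5a1, Slc2a2, Slc2a5 and Khk (left) have the order of the bars in the control mice, with replicate 3 highest, while Fbp1, Mlxipl, Hk2 and Slc2a1 (right) do not.

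Ratios of raw counts within a library need no scaling between libraries. Khk had 3.93, 2.63 and 3.99 counts for each count of Fbp1 in controls, 8.41, 10.7 and 10.8 at 18 h and 2.94, 2.98 and 2.23 at 72 h. The count of fructose kinase relative to fructose bisphosphatase thus stood higher in all 18h-αGal mice than in any other mouse. Slc5a1 had 0.836, 0.674 and 1.67 counts for each count of Mlxipl in controls, 2.08, 1.85 and 2.02 at 18 h and 0.796, 0.791 and 0.566 at 72 h. This ratio too was higher in every 18h-αGal mouse than in the other 6. Both ratios have as denominator a gene that was itself lower at 18 h, so they are not separate results. Of the other ratios taken, Slc5a1 to Fbp1 separated in the same way. Hk2 to Fbp1 did not, at 2.58 to 7.09 at 18 h and 1.97 to 2.77 at 72 h. The share of all gene pairs that separate so was not computed. The ratio of Slc2a2 to Slc2a5 was 4.66, 3.99 and 4.31 in controls and 4.41, 4.29 and 3.54 at 18 h, and lower in all 72h-αGal mice, at 1.96, 3.31 and 1.81. The ratio of Slc5a1 to Slc2a5 was likewise lower in all 72h-αGal mice, at 7.93, 9.75 and 7.72, beside 10.6 to 14.3 in controls and 11.7 to 14.9 at 18 h. Both Slc2a2 and Slc5a1 therefore stood lower relative to the fructose importer at 72 h, although none of these genes passed its own test.

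The wider carbohydrate pathway was described with 10 lists of 126 genes, 117 of them tested. At 18 h against control 6 rose and 4 fell, beside 3.27% and 2.69% of all genes tested. At 72 h against control none passed (15 had an unadjusted p under 0.05 in edgeR), beside 0.0264% of all genes. Between 72 h and 18 h 7 were higher and 20 lower, beside 4.18% and 6.04%. Median log2 fold changes of the 117 genes were 0.05, -0.12 and -0.17, where those of all genes tested were -0.03, 0.00 and 0.05. Among 18 other sugar transporters none passed against control, and only Slc5a2, a renal-type glucose cotransporter, was higher at 72 h than at 18 h (65.7 ± 13.9 to 166 ± 53.9 normalised counts, log2 fold change 1.35 ± 0.35). None of the 4 disaccharidases passed. Sucrase-isomaltase (Sis) had 65226 ± 25840 normalised counts in controls, 78335 ± 20156 at 18 h and 37295 ± 8853 at 72 h. Its lowest mean, like those of the disaccharidases Mgam and Treh and of Slc5a1 and Slc2a2, was at 72 h. Lactase (Lct) was lowest at 18 h instead, with 12793 ± 10526, 2812 ± 1545 and 5490 ± 4197 normalised counts in the 3 groups. At 18 h against control 1 of the 4 disaccharidases had an unadjusted p under 0.05 in edgeR.

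In fructose and polyol metabolism 1 of 8 genes changed. Sord, sorbitol dehydrogenase, which makes fructose from sorbitol, fell from 891 ± 119 normalised counts to 272 ± 26.8 at 18 h, a log2 change of -1.70 ± 0.17 (edgeR adjusted p of 5.24e-05). It stood at 644 ± 25.1 at 72 h, higher than at 18 h by 1.25 ± 0.16. Tkfc, the triokinase that acts on a product of fructose breakdown, had 7461 ± 2009, 7676 ± 2165 and 5202 ± 1149 normalised counts. It passed in no comparison, with a log2 change of 0.05 ± 0.24 at 18 h against control.

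Of the other 8 gluconeogenic genes, Pck2, the mitochondrial phosphoenolpyruvate carboxykinase, fell at 18 h (log2 fold change -0.61 ± 0.16) and Got1, a cytosolic aspartate aminotransferase, rose (1.47 ± 0.17), and both moved back by 72 h (0.78 ± 0.16 and -1.38 ± 0.17 against 18 h). Fbp2, the paralogue of Fbp1, had 1750 ± 420, 1196 ± 101 and 1310 ± 234 normalised counts and did not pass at 18 h (-0.54 ± 0.17, edgeR adjusted p of 0.0739). Mdh1 was lower at 72 h than at 18 h (-0.61 ± 0.18). In glycolysis, which runs opposite to the step of Fbp1, 2 of 24 tested genes rose at 18 h, Aldoa (0.67 ± 0.14) and Pgk1 (0.78 ± 0.13), and none fell. Between 72 h and 18 h 8 of the 24 were lower: Pgk1, Eno1, Pgam1, Gapdh, Aldoa, Ldha, Tpi1 and Pkm, with log2 fold changes from -0.89 to -0.53. The median over the 24 was 0.18 at 18 h against control and -0.43 between 72 h and 18 h.

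Around ChREBP, its DNA-binding partner Mlx rose at 18 h (0.71 ± 0.18, edgeR adjusted p of 0.0271) while Mlxipl itself fell. Mlx then was lower at 72 h than at 18 h (-0.87 ± 0.18). Mlxip, the related sensor MondoA, had -0.39 ± 0.17 at 18 h, which did not pass, and was higher at 72 h than at 18 h (0.62 ± 0.17). Of the 13 partners and targets tested, 2 passed at 18 h as higher and none as lower. The other was Scd2, a fatty acid desaturase, which went from 431 ± 65.6 to 2745 ± 760 normalised counts (2.69 ± 0.27) and was at 376 ± 123 at 72 h. The median log2 fold change of the 13 at 18 h was 0.35, with 11 positive and 2 negative. There 9 had an unadjusted p under 0.05 in edgeR, beside 20.8% of all genes tested. Acacb was higher and Elovl6 lower at 72 h than at 18 h (1.30 ± 0.22 and -0.88 ± 0.22). Fasn, Acaca, Acly and Arrdc4 passed in no comparison, nor did Txnip of the fructose and polyol list. Of 13 enterocyte transcription factors, 1 fell at 18 h, and Hnf4g was lower at 72 h than at 18 h (-0.68 ± 0.19).

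In galactose and glycogen metabolism, 1 of 13 genes rose at 18 h, and 3 were lower at 72 h than at 18 h, among them Ugp2 and Pgm2 (-0.75 ± 0.13 and -0.41 ± 0.12). Of 11 genes of the hypoxia factor HIF1 and its targets, Ndrg1 fell at 18 h (-0.75 ± 0.16) and was higher at 72 h than at 18 h (0.64 ± 0.16), and Hif1a was lower at 72 h than at 18 h (-0.43 ± 0.12). The taste channel Trpm5, a tuft cell marker as well, was lower at 72 h than at 18 h (-1.17 ± 0.24).

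**Figure D5:**
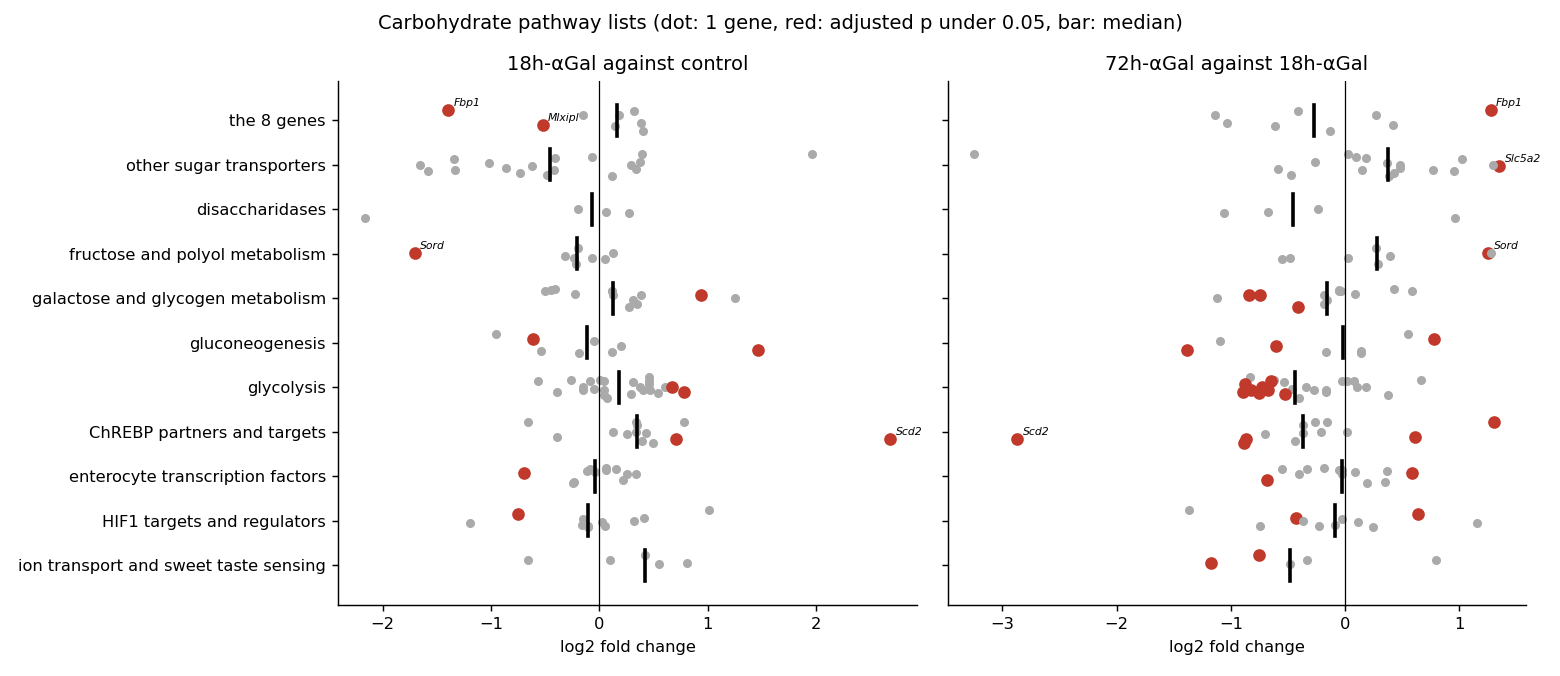
Log2 fold changes (horizontal axes) of the 8 genes and of the genes in 10 carbohydrate pathway lists, a dot for each gene, at 18 h against control (left) and 72 h against 18 h (right), with genes of adjusted p under 0.05 in red and each list's median as a bar. Sord (-1.70) lies beside Fbp1 (-1.39) at the low end on the left, and glycolysis has 8 red dots below 0 on the right.

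The genes whose profile over the 9 libraries was most like that of each of the 8 were sought among 11149 genes, by the root mean square difference of centred log2 CPM. For Fbp1, whose own root mean square deviation was 0.649, these were Sord (0.18), Hr (0.189) and Slc17a4 (0.216). Sord was also on the fructose and polyol list, which was chosen with earlier results of these data known. Mlxipl (own deviation 0.278) was closest to Ptp4a1 (ENSMUSG00000026064, 0.0613), Stambpl1 and ENSMUSG00000095041. Slc5a1 (own deviation 0.593) was closest to Srxn1, Ckmt1 and Enpep, at 0.102 to 0.111, and Enpep is a brush border peptidase. Slc2a2 (0.691) was closest to H2-Q1, Acsl5 and H2-Q2, and Slc2a5 (0.394) to Tbx3, Cisd3 and Gm11695. Khk (0.361) was closest to Dglucy, 2610528J11Rik and Myo7a, Hk2 (0.311) to Fads2, Acsl3 and Alms1, and Slc2a1 (0.258) to Naa25, Mki67 and Tmem43. Mki67, which marks dividing cells, had 11117, 14626 and 13937 normalised counts on average in control, 18h-αGal and 72h-αGal mice. These likenesses are descriptions of 9 libraries and share their depth and cell makeup.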

How the data were processed

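RNA of sorted crypt IECs was sequenced from 9 libraries, 3 a group. Per the labels, replicates are separate samples, and p-values measure the spread between them. The authors made ribosomal RNA-depleted directional libraries and mapped the reads with HISAT2. The submitters' processing notes also name featureCounts, Subread and DESeq2 1.42.0. The authors deposited raw counts per gene and a normalised signal, which equals the count divided by 1 median-of-ratios factor per library, with no length correction. The methods name build GRCm39 and the processing notes GRCm38. Symbols and exon lengths were matched by identifier to GENCODE vM39 (28480 of 29288), and coordinates and promoters are RefSeq's on GRCm38.p6. The annotation release and strand setting are not given in the sources used here.

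The 8 genes and all lists were chosen with earlier results of these data known. Raw counts were tested with edgeR 4.0.16 in R 4.3.3 (filterByExpr, 18933 genes kept, TMM scaling, a robust quasi-likelihood fit of all 9 libraries, Benjamini-Hochberg adjustment over all genes, called at adjusted p under 0.05), after a test on simulated data. The study used DESeq2, an alternative here. Depth was 8887861 to 32722293 counts per library, where a floor of 3 counts equals 0.338 to 0.0917 CPM, for counting error only. Named genes were the 8, the pathway genes called in at least 1 comparison, and the 3 nearest profiles of each of the 8 among genes with a mean of at least 100 counts. Other genes were named after their values were seen, and some genes that the rule names are not reported here. Each result was recomputed under 19 alternatives, including upper-quartile and DESeq2 scaling, DESeq2, limma 3.58.1, other filters, a 2-group fit, a replicate block, and leaving out each library. Rsc1a1, Fgf21, Gnat3, Hba-a1 and Hbb-bs were not analysed here.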

Additional observations from a re-analysis of the deposited data

Results flagged for a closer look

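The change of Fbp1 from control differed between the time points in a direct test. The log2 difference between 72 h and 18 h was 1.27 ± 0.19 (SE), with an edgeR adjusted p of 0.00105, and all 3 72h-αGal mice were higher than all 3 18h-αGal mice (584, 680 and 589 against 232, 233 and 309 normalised counts). Among all genes tested 16.6% were apart in this direction. Fbp1 was the only one of the 8 genes to pass this test. Under each of the 19 alternatives the difference passed and was at least 1.20. Summed villus enterocyte markers, at 174448, 222841 and 116424 in the 72h-αGal mice and 259368, 213205 and 338897 in the 18h-αGal mice, were lower on average at 72 h with overlapping ranges. Fbp1 also passed with the mean log2 CPM of these markers as a covariate.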

How the results depend on the processing

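Depth differed 3.68-fold between libraries, and 3 mice a group with controls at 18 h only limit what could be called. Fbp1 kept its call under all 19 alternatives at 18 h against control (-1.53 to -1.28) and between 72 h and 18 h, and Mlxipl lost its call at 18 h under 7 of 19. Where a value below moved, the cause was not tested, apart from the fewer samples or genes that a setting uses. At 18 h against control the genes called went from 1128 to 593 with the 2 groups alone and 2662 with the enterocyte marker covariate, which was chosen after seeing the data. They ranged from 432 (without 18h-αGal replicate 2) to 1556 when 1 library was left out, with 489 and 681 without control replicates 1 and 2. Of the 8 genes 1 was called with the 2 groups alone, and 1 to 2 with a library left out. Of the pathway genes, 10 at first, 16 were called without a filter, 37 with the covariate, and 6 to 17 with a library left out. At 72 h against control the 5 genes called became 30 with DESeq2, 13 without a filter, 3 with limma, 3 with a stricter filter, 3 without robust estimation and 0 to 20 with a library left out, 20 of them without control replicate 3. None of the 8 or of the pathway genes was called there under any alternative. Between 72 h and 18 h, 831 (without 72h-αGal replicate 3) to 2593 genes were called with a library left out, beside 1936. Of the 8 genes 2 were called with upper-quartile scaling (Fbp1, Mlxipl), 2 with DESeq2 (Fbp1, Khk), 2 with the 2 groups alone (Fbp1, Slc5a1), 3 with limma and 3 without robust estimation (Fbp1, Slc5a1, Slc2a2), 3 without a filter (Fbp1, Khk, Mlxipl), 4 with the covariate, and 1 to 4 with a library left out, 4 of them without control replicate 3. Of the pathway genes 15 to 37 were called with a library left out.

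Signs of values that had not passed also turned. With a library left out, the log2 fold change at 18 h ranged from -0.083 to 0.46 for Slc2a2, from -0.068 to 0.31 for Khk and from -0.43 to 0.079 for Hk2, and that at 72 h against control from -0.33 to 0.19 for Slc2a5. With the covariate, values at 72 h against control were 0.059 for Slc5a1, 0.46 for Slc2a5, 0.035 for Mlxipl and -0.081 for Hk2, and Slc2a5 had 0.083 between 72 h and 18 h. With the longest transcript as length, control levels were 32.3 for Khk, 21.9 for Fbp1 and 160 for Mlxipl, in CPM per kilobase.

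The replicate numbers recur in each group. Deviations of same-numbered libraries correlated between -0.15 and 0.115, and those of differently numbered libraries between -0.100 and 0.135. With 3 libraries a group, these values cannot settle whether the numbers pair mice or share a batch. With the replicate block 781, 1 and 1371 genes were called in the 3 comparisons. Of the 8 genes 1 was called at 18 h, as Mlxipl then had an adjusted p of 0.0709, and no other call among the 8 changed.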
